A study of Mus musculus with 4 samples.

Results

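The genes described here are 8 protein-coding genes chosen by their measured difference between TLR9-/- and wild-type (WT) bone marrow, in which 1 genotype held nearly all of the transcripts. They are St6galnac2, Npy, Galnt9, Ncmap, Tcea3, Plekhg1, Plcd3 and Col5a3, and they are 8 of the 31053 genes in the deposited count matrices. Their rows were found by gene symbol, which gave 9 rows because St6galnac2 names 2 rows. Since the genotype difference chose them, its values are given below as a description and no support is drawn from a test of it, and the tests read here concern the cell types in which each gene was found.

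TLR9 is the endosomal receptor for CpG-rich DNA. Bone marrow mononuclear cells of C57BL/6 mice, flushed from femur and tibia and taken from the interface of a Ficoll gradient, were profiled by droplet single-cell sequencing of transcript 5′ ends, with 2 WT and 2 TLR9-/- mice and 1 library per mouse. The work was done as 2 experiments, and each took 1 mouse of either genotype, but the labels do not say which libraries shared an experiment. The TLR9-/- mice carry a disrupted Tlr9 allele in every cell, they were bred in cages apart from the WT mice, and neither ages nor sexes were in the labels. Transcripts were counted as unique molecular identifiers (UMIs), which mark single captured molecules.

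The members have varied textbook roles, and St6galnac2 and Galnt9 both act in O-glycosylation. St6galnac2 adds sialic acid to the first sugar of O-linked glycans, and Galnt9 belongs to the enzymes that attach that first sugar, N-acetylgalactosamine, to proteins. Npy is neuropeptide Y, a peptide of sympathetic neurons that has also been found in the megakaryocytes of some mice. Ncmap is a membrane protein of noncompact myelin in Schwann cells. Tcea3 is a tissue-restricted form of the elongation factor TFIIS, which restarts stalled RNA polymerase II. Plekhg1 is an exchange factor for small GTPases, Plcd3 is a phospholipase C that splits phosphatidylinositol bisphosphate into 2 second messengers, and Col5a3 is a chain of type V collagen, a matrix protein.

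After filtering, 8895 to 10781 cells per library remained, with 31210188 to 63958243 UMIs per library and median UMIs per cell of 1759 and 2287 in WT and 2545 and 3618 in TLR9-/-. Cells were clustered without the 8 genes, and 26 of 28 clusters were given a cell type name by their markers, written below with the ending "-like". Cluster 4 (2571 cells, led by Myl4 and Rsph1) and cluster 26 (63 cells, led by Col1a1 and Col1a2) kept no name. The 14 classes with at least 20 cells in every library were tested. Pairs of libraries shared 112 to 185 cell barcodes, between 1.26% and 1.75% of the smaller library, and no cell with a member's UMI in the genotype where that gene was low had a barcode that also held the gene in the other genotype. Levels are given as CPM, the UMIs of a gene per 1000000 UMIs of all genes in the same cells, and they are compared between cells and libraries, not between genes. The targeted gene itself kept some UMIs in the knockout: Tlr9 was counted at 41 and 48 UMIs in TLR9-/- (0.817 and 0.750 CPM) and at 120 and 97 in WT (3.84 and 2.34 CPM), so the Tlr9 levels of the genotypes did not overlap, while the difference did not pass the threshold (log2 difference -1.98, adjusted p = 0.117, edgeR).

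St6galnac2, Npy and Ncmap were the members found in TLR9-/- marrow. St6galnac2 (ENSMUSG00000057286, chr11:116675303-116694868, minus strand, coordinates here and below on GRCm38/mm10 from GENCODE vM21) gave 493 and 518 UMIs in TLR9-/- marrow, with 1 library per mouse, and 1 and 4 UMIs in WT marrow. Npy (ENSMUSG00000029819, chr6:49822710-49829507, plus strand) gave 305 and 242 UMIs in TLR9-/- and 1 and 0 UMIs in WT. Ncmap (ENSMUSG00000043924, chr4:135369576-135398227, minus strand) gave 420 and 763 UMIs in TLR9-/- and 3 and 1 UMIs in WT. In these 3 genes the lower TLR9-/- library lay 83.8, 118 and 87.0 times above the higher WT library in CPM, in that order.

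The other 5 members were found in WT marrow. Galnt9 (ENSMUSG00000033316, chr5:110544355-110621380, plus strand) gave 65 and 80 UMIs in WT and 1 and 3 UMIs in TLR9-/-. Tcea3 (ENSMUSG00000001604, chr4:136247729-136274898, plus strand) gave 33 and 53 UMIs in WT and 5 and 3 UMIs in TLR9-/-. Plekhg1 (ENSMUSG00000040624, chr10:3740364-3967303, plus strand) gave 115 and 128 UMIs in WT and 11 and 13 UMIs in TLR9-/-. These counts were small, yet no WT library overlapped a TLR9-/- library. Plcd3 (ENSMUSG00000020937, chr11:103070304-103101658, minus strand) gave 65 and 83 UMIs in WT and 4 and 7 UMIs in TLR9-/-. Col5a3 (ENSMUSG00000004098, chr9:20770050-20815067, minus strand) gave 190 and 387 UMIs in WT and 8 and 16 UMIs in TLR9-/-.

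**Figure D1:**
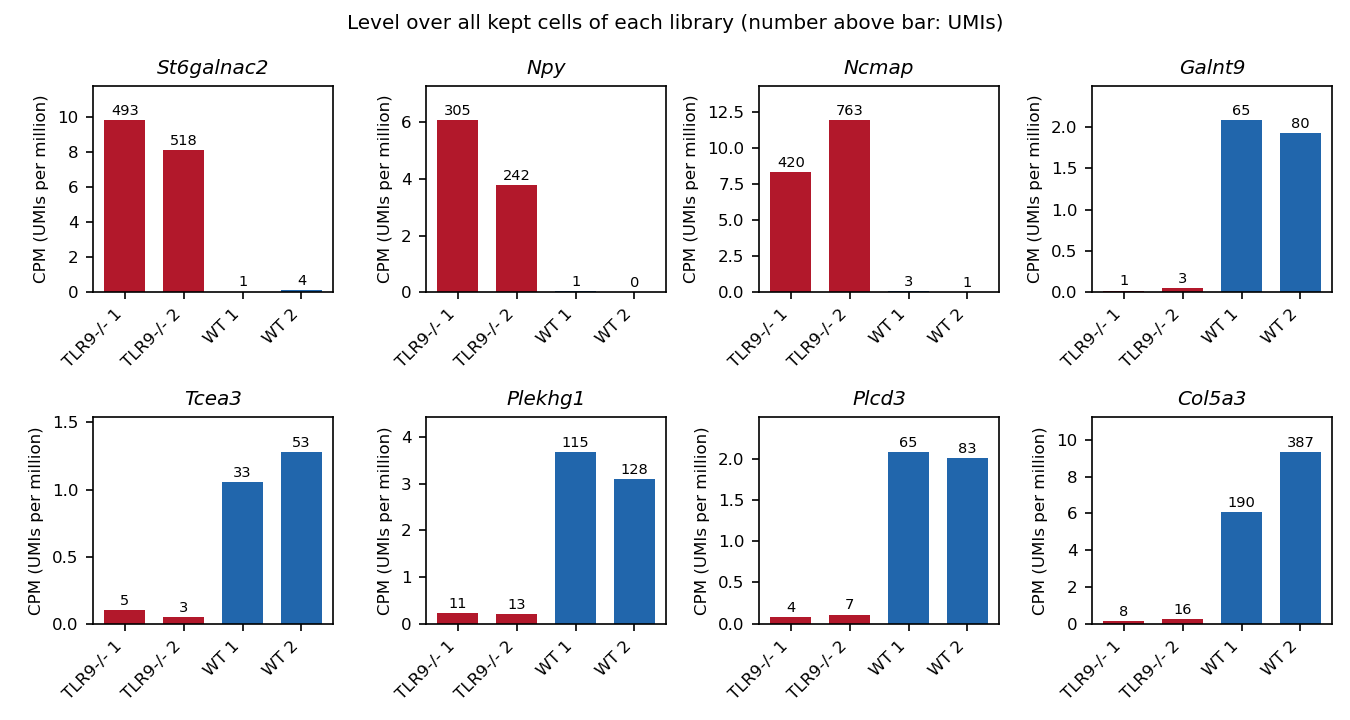
Level of each member over all kept cells of a library, as CPM on the vertical axis (UMIs of the gene per 1000000 UMIs), with 1 bar per library, TLR9-/- in red and WT in blue, and the UMI count above each bar. St6galnac2, Npy and Ncmap stand at 242 to 763 UMIs in the TLR9-/- libraries and at 0 to 4 in the WT libraries, and the other 5 genes stand at 33 to 387 UMIs in WT and at 1 to 16 in TLR9-/-.

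The members were not equally silent in the genotype where they were low. Mean levels over all cells were 8.96 ± 1.22 CPM (SD, n = 2 libraries) for St6galnac2 in TLR9-/- against 0.0643 ± 0.0457 in WT, and 10.1 ± 2.52 CPM for Ncmap in TLR9-/- against 0.0601 ± 0.0509 in WT. Pooled over the libraries of a genotype, Ncmap was 188 times higher in TLR9-/- (95% interval 73.3 to 691) and St6galnac2 129 times higher (54.9 to 397), where the exact binomial intervals cover counting error only. Npy, with a single WT UMI, was 348 times higher (62.2 to 13763). Among the genes of WT marrow the pooled ratio of WT to TLR9-/- was 57.0 for Galnt9 (21.8 to 212), 37.8 for Col5a3 (25.2 to 59.5), 21.2 for Plcd3 (11.5 to 43.3), 16.9 for Tcea3 (8.21 to 40.4) and 15.9 for Plekhg1 (10.5 to 25.3). The intervals of the last 3 overlap one another. In edgeR's quasi-likelihood fit over 14194 genes, 7 of the 8 members passed an adjusted p of 0.05 and Tcea3 did not, as against 0.268% of all genes tested, 0.134% higher and 0.134% lower in TLR9-/-. The members were picked on this contrast, so nothing is read from that count.

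The libraries read the 5′ ends of transcripts, so the sequence just before each annotated start is shown for the 5 members whose RefSeq start equals the start of the GENCODE gene (RefSeq, GRCm38.p6, the 100 bases before the first transcribed base, 5′ to 3′ on the gene's strand). Capitals mark the GC box, GGGCGG or its reverse complement CCGCCC, which binds Sp1-type factors.

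Npy, chr6:49822610-49822709, plus strand: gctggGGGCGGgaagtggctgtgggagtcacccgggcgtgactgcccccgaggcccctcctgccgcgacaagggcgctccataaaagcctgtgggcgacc
Ncmap, chr4:135398228-135398327, minus strand: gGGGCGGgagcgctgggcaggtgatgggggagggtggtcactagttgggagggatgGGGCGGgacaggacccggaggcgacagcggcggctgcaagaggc
Galnt9, chr5:110544255-110544354, plus strand: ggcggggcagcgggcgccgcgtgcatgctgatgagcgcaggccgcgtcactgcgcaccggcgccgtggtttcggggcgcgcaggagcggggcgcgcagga
Plcd3, chr11:103101659-103101758, minus strand: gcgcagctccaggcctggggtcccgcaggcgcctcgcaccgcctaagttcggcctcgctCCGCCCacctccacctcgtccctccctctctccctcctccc
Col5a3, chr9:20815068-20815167, minus strand: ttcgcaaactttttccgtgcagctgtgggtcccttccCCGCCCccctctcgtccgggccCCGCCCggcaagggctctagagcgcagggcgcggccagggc

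All 5 windows were rich in G and C, from 72% in Npy and Col5a3 to 79% in Galnt9. The GC box occurred in 4 of the 5, at 2 places in Ncmap and in Col5a3, and in 24.7% of 32851 RefSeq promoter windows of the same length. Windows at other RefSeq starts held 45% (Plekhg1), 51% (Galnt9), 60% (Ncmap) and 68% (Tcea3) G and C. Only that of Tcea3 held the box. The G and C content was not set against that of other promoters. Neither the letters TATAAA nor CCAAT, on either strand, occurred in these 5 windows, against 5.56% and 18.9% of all windows. Npy and Ncmap (TLR9-/-) and Plcd3 and Col5a3 (WT) held the box, so it was found among genes of both genotypes.

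The cell types were then compared within the genotype that expressed each gene, where the 8 genes had no part in making the classes. Each class was tested against the mean of the other 13 classes of the same genotype by edgeR's quasi-likelihood test, and also, in a comparison added after seeing the data, against all other cells pooled. Adjusted p-values given below are those of the first comparison, and both rest on 2 libraries per genotype. The first test calls a gene higher in a class in 22.2% of gene and class pairs in TLR9-/- and 19.8% in WT, the second in 19.7% and 17%. Of 112 pairs of member and class, 23 were called by the first test and 15 by both, and only the latter are described as higher below. The share of member and class pairs called by the first comparison was 31.0% for the TLR9-/- members and 14.3% for the WT members, against the background shares just given. Fewer cells of a kind and less RNA per cell cannot be told apart in values over all cells, but CPM within a class does not depend on the number of its cells.

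**Figure D2:**
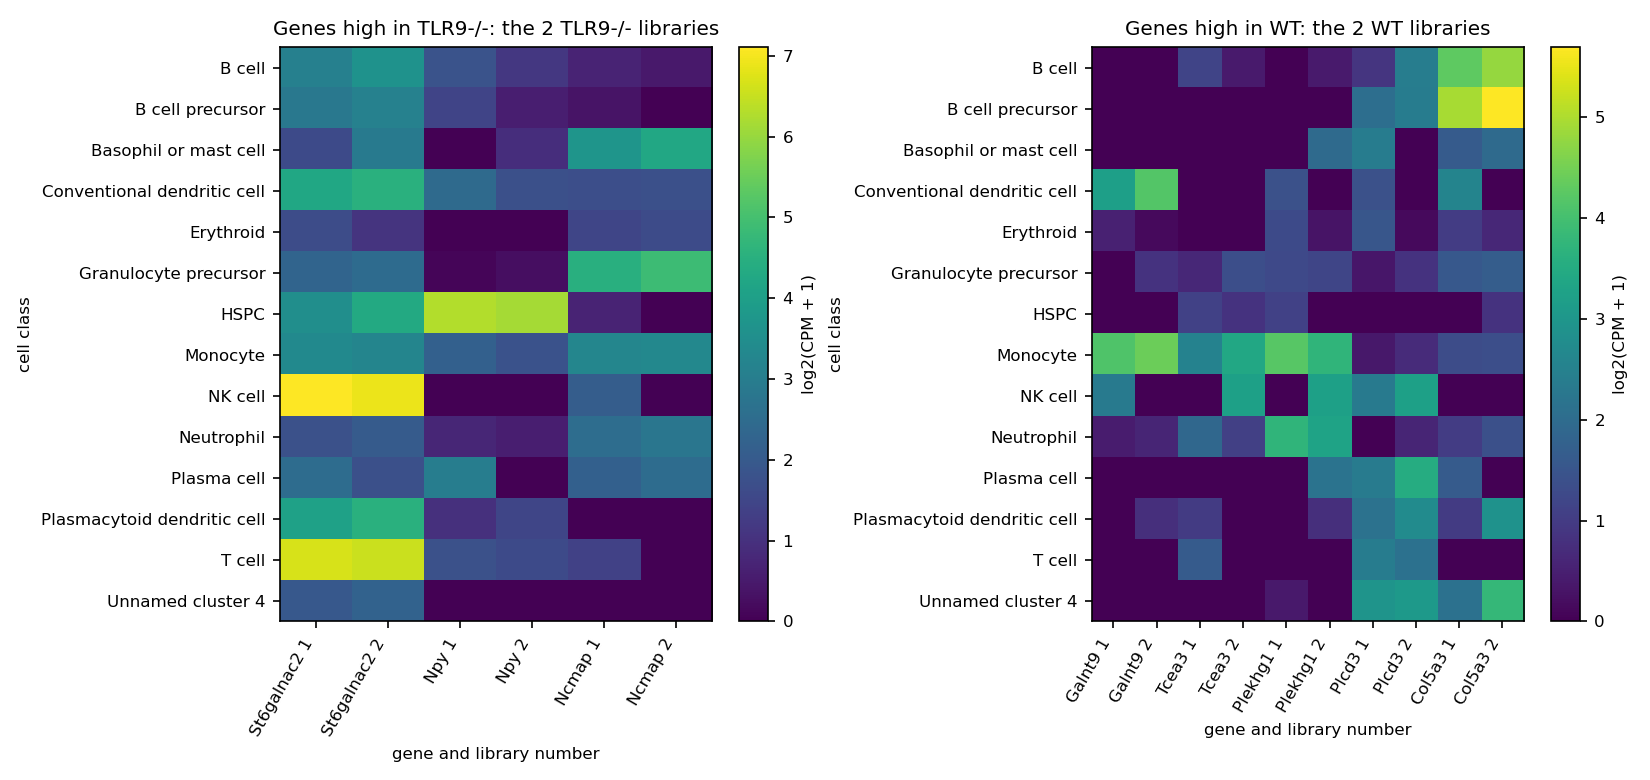
Level of each member in the 14 tested cell classes, shown as log2(CPM + 1) by colour, with a column for each gene and library of the genotype in which the gene was found (left, TLR9-/-, right, WT) and a row for each class, each panel having its own colour scale from 0. St6galnac2 is brightest in NK-like and T-like cells, Npy in the HSPC-like class, Ncmap in granulocyte precursor-like cells, Galnt9 in monocyte-like cells and Col5a3 in B cell precursor-like and B-like cells.

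St6galnac2 was highest in the NK-like and T-like cells of TLR9-/- marrow and was present at a lower level in the other classes tested. In NK-like cells it reached 137 and 118 CPM in the 2 TLR9-/- libraries, and in T-like cells 101.3 and 91.3 CPM, so NK-like cells stood above T-like cells in both. Conventional dendritic-like cells followed at 17.9 and 22.0 CPM and plasmacytoid dendritic-like cells at 15.9 and 21.7 CPM, and these 2 overlapped each other and the HSPC-like class (10.3 and 18.8 CPM). Erythroid-like cells held the lowest pooled level of the tested classes, 1.47 CPM (2.16 and 1.09 CPM by library). Pooled over both libraries, NK-like cells held 131 CPM against 7.91 in all other cells (adjusted p = 2.1e-13, edgeR), T-like cells 96.9 against 7.10 (adjusted p = 1.7e-14), conventional dendritic-like cells 19.9 against 8.68 (adjusted p = 0.0137) and plasmacytoid dendritic-like cells 19.2 against 8.40 (adjusted p = 0.0066). The NK-like and T-like calls held in 11 of 11 fits. The conventional dendritic-like call was lost without TLR9-/- replicate 1 (edgeR, adjusted p = 0.143) and without TLR9-/- replicate 2 (0.18), and the plasmacytoid dendritic-like call without either of them (0.0521 and 0.228) and at Leiden resolution 2, a finer clustering (0.0715).

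In cells thinned to 1000 UMIs each, St6galnac2 was detected in 18.0% and 18.8% of NK-like cells and in 8.69% and 7.72% of T-like cells of the 2 TLR9-/- libraries, against 0.263% of erythroid-like cells over both. Before thinning, 68 of 229 and 25 of 66 NK-like cells held a UMI. WT NK-like and T-like cells had none, with 364653 and 769007 UMIs of all genes behind those zeros. Set against the limit of 3 UMIs that a count of 0 allows over the group, the TLR9-/- level was at least 15.9 times higher in NK-like cells and at least 24.8 times higher in T-like cells. Granulocyte precursor-like cells held 148 UMIs in TLR9-/- (3.91 and 4.60 CPM) and 0 in WT, at least 11.5 times higher. Of the 5 UMIs in WT marrow, 3 lay in the 29 WT cells of the unnamed cluster 26, the one led by collagen genes, where 34 TLR9-/- cells held 5 UMIs. The pooled TLR9-/- to WT ratio in that cluster was 1.43 (0.278 to 9.19), so no genotype difference of St6galnac2 was detectable there at this depth. Without cluster 26, the libraries held 490 and 516 UMIs in TLR9-/- and 1 and 1 in WT.

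The second row named St6galnac2 (ENSMUSG00000110170, chr11:116677483-116681290, minus strand) lies inside the first and shares its strand, so reads could not always be given to one of them. It held 10 and 16 UMIs in TLR9-/- and none in WT, and it fell below the filter on low counts.

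Npy was concentrated in a handful of cells. Of 547 Npy UMIs in TLR9-/- marrow, 446 lay in the HSPC-like class, a cluster led by Pf4, Itga2b, Cd34 and Angpt1 that takes in megakaryocyte progenitor-like cells, with 77.2 and 70.5 CPM in the 2 libraries and 0.934 CPM in all other TLR9-/- cells (adjusted p = 3.0e-17, edgeR). WT cells of that class held none, with 2136464 UMIs of all genes. The lower end of the exact interval of the ratio was 42.7. It takes UMIs as spread evenly over cells, which those of Npy were not, so it does not cover missed Npy-rich cells. At a finer clustering (Leiden resolution 2) the megakaryocyte progenitor-like cells separated from the rest. They held 245 of the 305 Npy UMIs of the first TLR9-/- library in 34 cells and 199 of the 242 of the second in 26 cells, 721 and 695 CPM, and all 12 cells with 5 or more Npy UMIs were among them. The HSPC-like cells that remained held 2 Npy UMIs in the first library and 0 in the second, and without the megakaryocyte progenitor-like cells Npy fell below the filter on low counts, so the call in the HSPC-like class rests on these 60 cells.

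Npy was not a property of every such cell. A UMI was seen in 7 of 34 and 15 of 26 megakaryocyte progenitor-like cells of the TLR9-/- libraries. In the first library the top 2 cells, with 125 and 103 UMIs, held 93.1% of the UMIs of this cluster, and the top 2 cells of the second library (85 and 41 UMIs) held 63.3%. None of the 12 cells was among those with the highest doublet scores, and all 12 held the platelet factor Pf4, between 4 and 1293 UMIs. The 11 and 9 WT cells of the cluster held no Npy UMI, which with 140350 UMIs of all genes puts TLR9-/- at least 33.2 times higher. Pf4 was at 9586 and 10634 CPM in these WT cells against 13020 and 18943 CPM in TLR9-/-. Ppbp went the other way, at 8543 and 1038 CPM in WT against 371 and 527 CPM in TLR9-/-, and so did Itga2b, at 1287 and 1245 against 662 and 897 CPM. In the first WT library 1 cell held 522 of the 664 Ppbp UMIs, 1 cell 447 of the 745 Pf4 UMIs and 1 cell 62 of the 100 Itga2b UMIs. Pf4, Ppbp and Itga2b did not overlap between the genotypes. The share of all genes without overlap in these cells was not counted, so nothing is read from it. Other megakaryocyte markers, Gp9, Clec1b, Treml1 and Tubb1, overlapped, with Gp9 at 1042 and 240 CPM in WT against 362 and 391 CPM in TLR9-/-. The WT cells were fewer and shallower, with median UMIs of 3598 and 2259 against 7626 and 10202, and the part of marker differences, depth and cell number in the Npy difference was not tested.

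**Figure D3:**
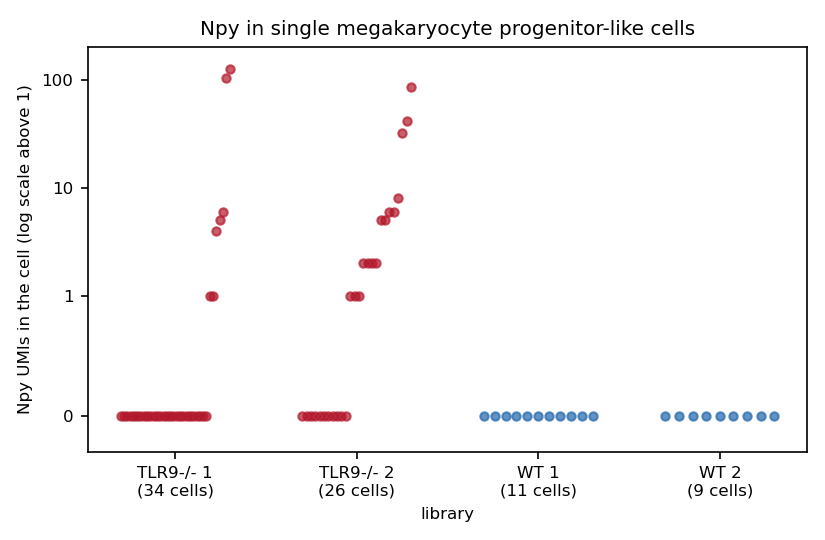
Npy UMIs in single megakaryocyte progenitor-like cells (1 point per cell, vertical axis linear up to 1 UMI and logarithmic above), by library, cells sorted by value. Most TLR9-/- cells of the first library stand at 0 and 2 stand above 100 UMIs, the second library has 15 of 26 cells above 0, and all 20 WT cells stand at 0.

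Outside the HSPC-like class, Npy was sparse in TLR9-/- marrow. Monocyte-like cells held 28 and 20 UMIs (3.53 and 2.44 CPM) and WT monocyte-like cells none in 6552616 UMIs. Erythroid-like cells, which should lack the peptide, held none in either genotype. The markers of sympathetic neurons Th, Dbh and Stmn2 had no UMI in any library, and Tubb3, another gene of that list, was at 0.266 to 0.688 CPM. Of the 8 other genes listed for the NPY system, 6 had no UMI, the receptor Npy1r had 1 and 2 UMIs in WT and none in TLR9-/-, and Dpp4, a protease that trims the peptide, was tested and did not pass (log2 difference -0.80).

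Ncmap was a transcript of the early granulocyte lineage. Granulocyte precursor-like cells, marked by Mpo, Elane, Ctsg and Prtn3, held 289 and 584 Ncmap UMIs in the TLR9-/- libraries (21.3 and 28.3 CPM), 73.8% of all its UMIs there. Against 3.88 CPM in all other TLR9-/- cells the difference passed the test (adjusted p = 2.3e-15, edgeR). Basophil or mast cell-like cells stood next at 11.98 and 18.3 CPM, below granulocyte precursor-like cells in both libraries. Monocyte-like cells (8.56 and 9.01 CPM) stood above neutrophil-like cells (4.81 and 5.94 CPM), without overlap. All 3 classes, and plasma-like cells at 5 UMIs, passed the test against the mean of the other classes but not the test against all other cells pooled, in which the granulocyte precursor-like cells are included. B-like, B cell precursor-like and HSPC-like cells held 5 Ncmap UMIs in all, and plasmacytoid dendritic-like cells held none.

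WT granulocyte precursor-like cells had no Ncmap UMI among 9905393 UMIs of all genes, so that the TLR9-/- level was at least 68.3 times higher. The 4 WT UMIs lay in monocyte-like cells (2), a T-like cell (1) and a neutrophil-like cell (1). In monocyte-like cells the pooled TLR9-/- to WT ratio was 28.8 (7.83 to 240), and in neutrophil-like cells it was 60.6 (10.6 to 2422). The genes of peripheral myelin did not accompany Ncmap: of the 5 others on the list, Mbp, the basic protein of compact myelin, was at 23.6 and 28.2 CPM in TLR9-/- and 19.6 and 28.1 CPM in WT, and of the 3 with enough counts 0 passed the genotype test.

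Galnt9 was found mainly in the monocyte-like cells of WT marrow. They held 55 and 65 of its 65 and 80 UMIs, or 16.4 and 20.4 CPM, against 0.379 CPM in all other WT cells (adjusted p = 1.4e-09, edgeR). Conventional dendritic-like cells held 5 and 4 UMIs, or 8.28 and 17.0 CPM, a range that overlaps that of the monocyte-like cells (adjusted p = 1.7e-04, edgeR). No UMI lay in B-like, B cell precursor-like, T-like or HSPC-like WT cells. In cells thinned to 1000 UMIs, a Galnt9 UMI was seen in 1.92% of monocyte-like cells (95% exact interval 1.26% to 2.80%) and in 0 of 2532 B-like cells, which allows a share of up to 0.146% of cells with a UMI at this depth. TLR9-/- monocyte-like cells had no Galnt9 UMI among 16151953 UMIs of all genes, so that the WT level was at least 79.0 times higher. The 4 UMIs of TLR9-/- marrow lay in T-like cells (3) and a granulocyte precursor-like cell (1).

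Tcea3 also centred on monocyte-like cells, with 16 and 31 UMIs in the WT libraries (4.76 and 9.71 CPM) against 0.591 CPM in all other WT cells (adjusted p = 6.8e-06, edgeR). Neutrophil-like cells held 8 and 9 UMIs, or 2.74 and 1.12 CPM, which passed both comparisons although the pooled level of 1.55 CPM was close to the 1.12 CPM of the other cells (adjusted p = 0.0065, edgeR). That call held in 9 of 11 fits, and the fit without WT replicate 1 was among those that lost it. The levels of both classes did not overlap. Erythroid-like and B cell precursor-like WT cells held none. TLR9-/- monocyte-like cells held 1 UMI, and the pooled ratio of WT to TLR9-/- there was 116 (19.8 to 4672).

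Plekhg1 was a myeloid transcript in WT marrow. Monocyte-like cells held 59 and 39 UMIs (17.6 and 12.2 CPM, adjusted p = 1.0e-09, edgeR) and neutrophil-like cells 36 and 72 UMIs (12.3 and 8.93 CPM, adjusted p = 3.6e-10, edgeR). These ranges overlap, and the classes held 40.3% and 44.4% of its WT UMIs. Granulocyte precursor-like cells, the stage before the neutrophil, stood at 1.39 and 1.27 CPM, below the neutrophil-like cells of both libraries. T-like and B cell precursor-like WT cells held none.

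The TLR9-/- UMIs of Plekhg1 were not spread evenly. Neutrophil-like cells held 16 of the 24, and their pooled ratio of WT to TLR9-/- was 9.69 (5.70 to 17.6). Monocyte-like cells held 2, with a ratio of 121 (32.6 to 1011). The intervals of both ratios do not overlap, but they cover counting error only, not the spread between mice. Whether the ratio differs between these classes was not tested. In the unnamed cluster 26 the ratio was 1.56 (0.263 to 10.6) from 4 and 3 UMIs, so a genotype difference was not detectable there.

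Plcd3 was found at low levels in several lymphoid classes of WT marrow. Cluster 4, which kept no name although 14 of 19 B cell precursor markers were detected in over 10% of its cells, held 22 and 28 UMIs (6.76 and 7.49 CPM) against 1.49 CPM in all other WT cells (adjusted p = 0.0011, edgeR). B cell precursor-like cells (3.14 and 4.23 CPM), plasmacytoid dendritic-like cells (3.43 and 5.71 CPM) and T-like cells (4.26 and 3.34 CPM, from 3 UMIs in all) stood below it in both libraries and overlapped one another. Neither comparison called any of these classes. Plasma-like cells held 5 UMIs, at 4.19 and 10.6 CPM, a range that includes that of cluster 4. HSPC-like cells held none, and monocyte-like and neutrophil-like cells 7 UMIs in all. At the finer clustering cluster 4 did not exist, and the first comparison called Plcd3 in B cell precursor-like cells (adjusted p = 0.0044, edgeR).

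In cluster 4 the TLR9-/- libraries held no Plcd3 UMI, so that the WT level was at least 7.08 times higher. Erythroid-like cells went another way: they held 9 of the 11 TLR9-/- UMIs of Plcd3 and 13 and 1 UMIs in WT, and the pooled WT to TLR9-/- ratio was 1.52 (0.615 to 3.99). No genotype difference of Plcd3 was therefore detectable in that class at this depth.

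Among the tested classes, Col5a3 was highest in the B cell precursor-like and B-like cells of WT marrow. B cell precursor-like cells held 105 and 204 UMIs (29.97 and 50.8 CPM) against 4.12 CPM in all other WT cells (adjusted p = 1.8e-12, edgeR). B-like cells held 44 and 80 UMIs (18.5 and 26.6 CPM, adjusted p = 4.4e-09, edgeR), below the precursors in both libraries. Cluster 4 stood at 3.38 and 12.8 CPM and passed only the comparison with the mean of the other classes. T-like and NK-like cells held none, and HSPC-like cells 1 UMI. In thinned cells, 4.15% of B cell precursor-like cells (3.36% to 5.06%) and 2.13% of B-like cells (1.61% to 2.77%) held the transcript.

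TLR9-/- B cell precursor-like and B-like cells held no Col5a3 UMI, so that WT was at least 59.1 and at least 24.9 times higher in them. Of the 24 UMIs in TLR9-/- marrow, 17 lay in granulocyte precursor-like cells, where the pooled ratio of WT to TLR9-/- was 4.27 (2.15 to 8.62), and 4 lay in cluster 26. Macrophage-like cells, too few to be tested, held 1 and 7 Col5a3 UMIs in 16 and 10 WT cells, or 39.4 and 375 CPM, above the B cell precursor-like cells of the same library. At Leiden resolution 2, where that class had 47 and 38 WT cells, the level was 10.1 and 106 CPM and passed the first comparison (log2 difference 4.67, adjusted p = 4.4e-04, edgeR). At resolution 1 the 4 TLR9-/- macrophage-like cells held no Col5a3 UMI, too few to bound a fold. At resolution 2 the class had 32 and 52 TLR9-/- cells, and the genotypes were not compared within it.

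The 5 genes nearest on each side of each member, among those with at least 10 UMIs, were examined next. They came to 74 genes, of which 67 were tested and 1 was called higher and 1 lower in TLR9-/-, beside the background of 0.134% in each direction. BC018473, an antisense-type transcript (chr11:116752167-116759373, plus strand) 76.9 kb after St6galnac2, held 7673 and 14319 UMIs in TLR9-/- and 2 and 0 in WT (log2 difference 12.59, SE 0.62, adjusted p = 0.0046, edgeR). It was on in the same genotype as St6galnac2. A630023P12Rik, a long noncoding RNA 29.4 kb before Galnt9, held 14 and 18 UMIs in TLR9-/- and 72 and 104 in WT (log2 difference -3.10, SE 0.31, adjusted p = 0.0434, edgeR). It was higher in the same genotype as Galnt9.

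Around St6galnac2 the median log2 difference of the 9 neighbours tested was 1.96, against -0.04 for the 58 neighbours of the other members and -0.02 for all genes. The gene that overlaps St6galnac2 on the opposite strand, 1810032O08Rik, held 981 and 1115 UMIs in TLR9-/- and 487 and 491 in WT, which did not pass the test (log2 difference 0.43, adjusted p = 0.316, edgeR). St6galnac1, the related enzyme 89.7 kb after St6galnac2, and Mxra7, 128 kb after it, were picked after their values were seen. St6galnac1 held 40 and 57 UMIs in TLR9-/- and 0 in both WT libraries, and Mxra7 held 104 and 129 in TLR9-/- and 4 and 9 in WT, without overlap of the genotypes. Neither passed the threshold (adjusted p = 0.0837 and 0.0634, edgeR). The start of Ncmap lay 0.878 Mb from that of Tcea3 on chromosome 4, and these members were found in opposite genotypes. St6galnac2 and Plcd3, also of opposite genotypes, lay 13.6 Mb apart on chromosome 11. Col5a3 shared chromosome 9 with Tlr9 at a distance of 85.5 Mb.

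**Figure D4:**
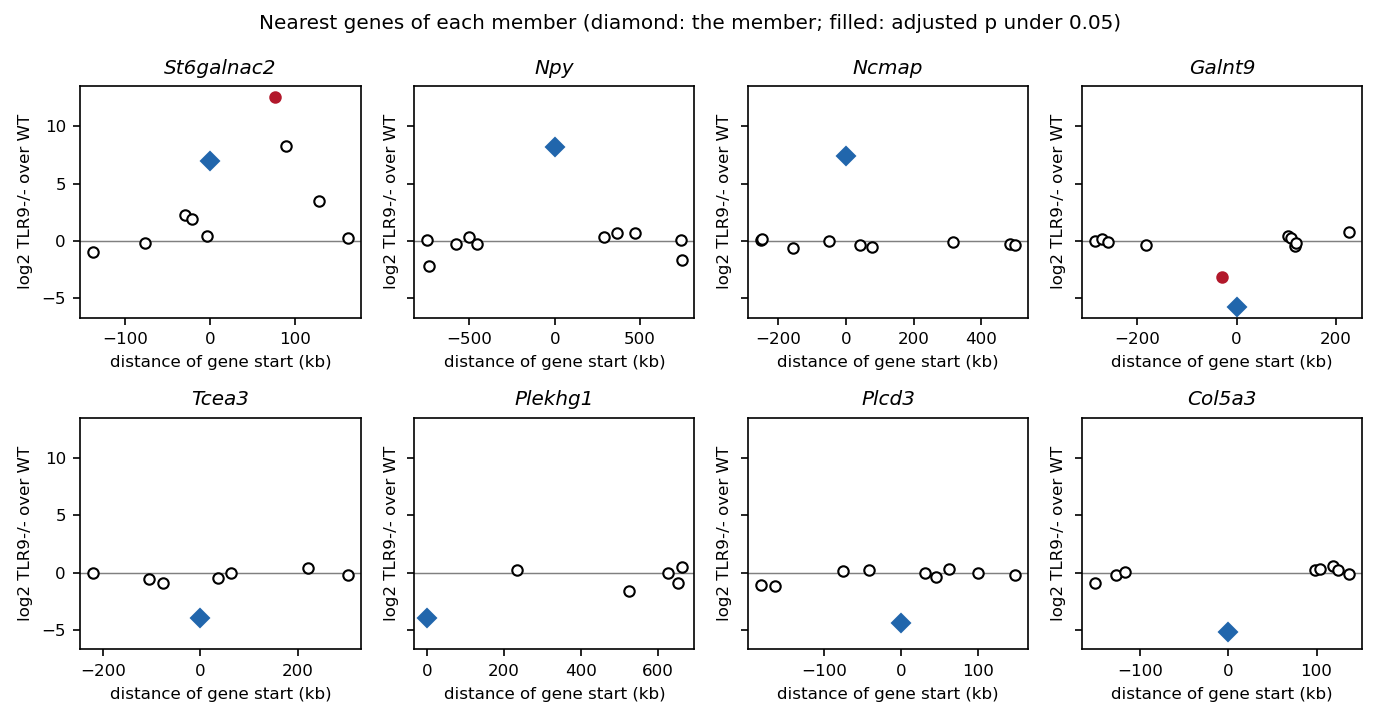
Log2 difference between TLR9-/- and WT (vertical axis) of the genes near each member by distance between gene starts in kb (horizontal axis), 1 panel per member and 1 circle per gene, filled where the adjusted p was under 0.05, with the member itself as a diamond at 0 kb. Most circles lie near a log2 difference of 0, while BC018473 near St6galnac2 stands at 12.59 and A630023P12Rik near Galnt9 at -3.10.

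The genes whose level followed each member most closely over 28 points, 14 classes in each of 2 libraries of the genotype where it was found, are given by Pearson's r of log2(CPM + 1) for 7 of the 8 members, since Tcea3, with 86 UMIs in WT, was under the minimum of 100. The points share libraries and depth, so r is a description only. Npy was closest to Pf4 (r = 0.913), Alox12 (0.901) and Vldlr (0.879). Galnt9 was close to Slamf8 (0.944) and Skint3 (0.919), and Ncmap was closest to Ero1l (0.896), Dmkn (0.887) and Gstm1 (0.867). These companions were present in both genotypes: Pf4 held 4849 and 5930 UMIs in TLR9-/- and 1054 and 846 in WT. St6galnac2 was closest to Adora2a (0.898), Plcxd2 (0.893) and Kbtbd11 (0.891), and Plekhg1 to Acta2 (0.825), Fpr2 (0.795) and Pi16 (0.773). Plcd3 followed Ppp1r16b (0.747), St6gal1 (0.728) and Pim2 (0.728), and Col5a3 followed AC136372.1 (0.850), Ighv1-5 (0.845) and Igkv11-125 (0.835).

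Among relatives of the members few genes passed the genotype test. Of 19 other sialyltransferases 15 were tested and 0 called, with a median log2 difference of -0.16, and of 18 other GalNAc transferases 10 were tested and 0 called, with a median of -0.18. St3gal5, a sialyltransferase of glycolipids, stood at 39.2 and 46.4 CPM in TLR9-/- and 61.7 and 56.5 CPM in WT, and Galnt1 at 51.6 and 44.7 CPM in TLR9-/- and 54.1 and 55.7 CPM in WT. Of the O-glycan core enzymes 4 were tested (median -0.66), of the phospholipases C 7 (median 0.39), of the TFIIS-like factors 4 (median -0.14) and of the Plekhg exchange factors 3 (median 0.07), and 0 of these were called. The median over all genes was -0.02, and 2433 of 14194 genes had an unadjusted p under 0.05.

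The fibrillar collagens other than Col5a3 were the exception. Of 10 listed, 8 were tested and 2 were higher in TLR9-/-, opposite to Col5a3, beside 0.134% of all genes tested. Col1a1, a chain of type I collagen, stood at 123 and 141 CPM in TLR9-/- and 40.3 and 44.4 CPM in WT (log2 difference 1.63, adjusted p = 0.0356, edgeR). Col1a2, its partner chain, stood at 83.6 and 94.9 CPM in TLR9-/- and 31.0 and 31.6 CPM in WT (log2 difference 1.51, adjusted p = 0.0405, edgeR). Col5a1 and Col5a2, the other chains of type V collagen, did not pass, at log2 differences of -0.36 and 1.60.

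Both chains of type I collagen were on the stromal list. The summed level of its 8 markers was 215 and 249 CPM in TLR9-/- against 79.7 and 87.4 CPM in WT, with none of the 8 at 0. Col1a1 and Col1a2 made up 206 and 235 CPM of it in TLR9-/- and 71.3 and 76.0 CPM in WT. The other 6 markers summed to 8.60 and 13.3 CPM in TLR9-/- and 8.46 and 11.5 CPM in WT, overlapping, and 0 of the 5 of them tested were called. The part of stromal or osteoblast RNA in the collagen values was not tested. Cluster 26, led by type I collagen, also had Bglap and Ibsp of the osteoblast list among its leading genes. For Col5a3, this cluster held 4 of its UMIs, all in TLR9-/-. Summed markers of endothelial cells were lower in both TLR9-/- libraries, at 27.1 and 27.9 CPM against 41.6 and 33.2 CPM in WT, with 0 of 6 markers called. Pecam1 alone made up 19.2 and 18.8 CPM of it in TLR9-/- and 28.6 and 26.5 CPM in WT. The other markers of the list overlapped between the genotypes, except Emcn, which was higher in TLR9-/- (0.617 and 0.469 CPM against 0.288 and 0.362 CPM in WT). Those of osteoblasts (29.7 to 60.5 CPM) and of Schwann or glial cells (24.6 to 32.5 CPM) overlapped between the genotypes.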

How the data were processed

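Each of the 4 libraries came as a matrix of UMI counts per gene and cell barcode. The authors deposited these counts as Cell Ranger output without normalization, aligned with STAR to mm10 per the file headers and the submitters' processing notes, which also name Seurat 2.3.4. Cells with 200 to 10000 genes and at most 10% mitochondrial UMIs were kept. Cells were clustered on 2000 variable genes, without the member genes, and 30 components (scanpy 1.11.5, Leiden resolution 1, leidenalg 0.10.2), and clusters were named from marker lists. The cells with the highest Scrublet doublet scores (7.12% to 8.63% per library) were kept, and leaving them out was an alternative.

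UMIs were summed per library, or per library and class, and tested by edgeR's quasi-likelihood test (TMM factors, filter on low counts, Benjamini-Hochberg adjustment, threshold 0.05). In simulated data, 96.5% of 200 genes changed 8-fold were recovered in the genotype contrast, with 11 false calls. The simulation gave all genes 1 fixed spread, not that of these data, where Tcea3 did not pass at a log2 difference of -4.00. The share recovered is thus a check of the code and does not give the power here. The members and gene lists were chosen with earlier results of these data known. The genes named besides the members are Tlr9, neighbours that were called or overlap a member, the 3 genes most like each member, and called members of the lists with their most abundant genes. St6galnac1, Mxra7, Col5a2, Pecam1, Emcn, Tubb3 and the markers given for single classes were chosen after their values were seen. The 2 libraries of a genotype came from separate mice, each of 2 experiments took 1 mouse of either genotype, and the labels do not say that equal numbers mark 1 experiment. Intervals are exact Poisson or binomial (Clopper-Pearson) at 95% and cover counting error only. Where the lower genotype held 0 UMIs, a fold is the lower end of that interval. The fold of Npy in megakaryocyte progenitor-like cells instead uses a limit of 3 UMIs over the group. Comparing each class with all other cells pooled was added after seeing the data. Among the genes most like Galnt9, 1 is not reported here, nor is 1 marker of sympathetic neurons.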

Additional observations from a re-analysis of the deposited data

How the results depend on the processing

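Over the genotype contrast, 19 genes were higher and 19 lower in TLR9-/-. DESeq2 called 412 and 439, edgeR without a filter on low counts 258 and 347, and the fit with a replicate block 547 and 618. All 38 genes were among the calls of each of these fits, and the causes were not tested. Same-numbered libraries deviated together (r = 0.36 over 14194 genes), but with 2 pairs, and with no label tying a number to an experiment, the pairing was not taken as given. With the block, 15 of the 67 neighbours tested were called (2 without it, both among the 15), St6galnac1 and Mxra7 with them (adjusted p = 0.0248 and 0.0131, edgeR), and 16 of the 55 other family genes (2 without it, both among the 16), 5 of them sialyltransferases and 5 fibrillar collagens. Beside these counts, the fit with the block called 1165 of all 14194 genes tested. Among markers of other cells it added Pecam1 of the endothelial list, lower in TLR9-/- (adjusted p = 0.0366, edgeR). Leaving out 1 library gave 21 to 40 higher and 22 to 67 lower genes (lowest and highest), the lone library being assumed to vary like the other genotype, with the highest counts without TLR9-/- replicate 2 (40 higher) and without WT replicate 2 (67 lower). No alternative reversed a member's direction, which the choice of members fixed. Of the members' highest classes, DESeq2 lost Galnt9 in monocyte-like cells (adjusted p = 0.643), Tcea3 in monocyte-like cells (0.781) and Plcd3 in cluster 4 (0.311), while the edgeR alternatives kept each of these calls they could test. At Leiden resolution 2, Npy could not be tested, since its cells formed a class with 11 and 9 WT cells, under the minimum of 20, and the rest fell below the filter on low counts. There cluster 4 was not formed, and Plcd3 was called in B cell precursor-like cells (adjusted p = 0.0044, edgeR). The first class comparison at that resolution also called members in classes not tested at resolution 1. St6galnac2, Galnt9, Tcea3 and Plekhg1 were called in an unnamed cluster of 923 cells led by Apoe and Ms4a4a. St6galnac2 was called in macrophage-like cells, as was Col5a3, and Col5a3 also in an unnamed cluster of 1012 cells led by Cd72. Counts of 1 to 83 UMIs per library limit the ratios of Galnt9, Tcea3 and Plcd3.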
